A study of Homo sapiens with 6 samples.

Results

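The mitochondrial ribosomal protein genes are the nuclear genes for the protein part of the ribosome inside mitochondria. They were taken as all protein-coding genes whose GENCODE symbol begins with MRPL or MRPS followed by a number, which gave 78 of 58096 listed genes: 49 of the large subunit (MRPL) and 29 of the small subunit (MRPS). The rule reads symbols only, though the gene group was picked with earlier results of these data known, and all 78 passed the filter on low counts. Total RNA had been sequenced from the human line ALL-SIL, derived from T-cell acute lymphoblastic leukaemia with a rearranged TLX1 gene and a NUP214-ABL1 fusion. There were 3 libraries of cells given JQ1 (1 µM for 24 h) and 3 of DMSO controls, all from the same line and culture medium. JQ1 is a small-molecule inhibitor of the BET bromodomain family. The treatment text of the controls repeats the JQ1 dose and time, so the group of each library rests on its title, and what the controls were given besides DMSO is not described. Nothing in the labels says that the replicates came from separate cultures, so the p-values here measure library-to-library spread alone, possibly technical.

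Mitochondria keep a small genome that codes for core subunits of the respiratory chain, and its messenger RNAs are read by a dedicated ribosome. The ribosomal RNAs, MT-RNR1 and MT-RNR2, are made from the mitochondrial genome, while all its proteins are made in the cytosol and imported. Part of the proteins have counterparts in bacterial ribosomes and part are found in mitochondria alone. Without this ribosome the respiratory chain cannot be built, and MYC is known to favour expression of genes of mitochondrial biogenesis.

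The libraries held 15925885 to 25293884 gene counts. All 7 genes of the fixed T-lineage list, TLX1 among them, were detected, with a summed level of 1469 to 1656 CPM in DMSO and 893 to 1138 CPM in JQ1. Of 18 markers of B, myeloid, erythroid, epithelial and fibroblast cells, CD79A alone passed the filter on low counts, at 8.15 CPM in DMSO and 2.94 CPM in JQ1. The summed B-lineage markers ran from 4.36 to 12.6 CPM in DMSO and from 0.709 to 5.25 CPM in JQ1, and MS4A1, MPO, HBB, HBA1, COL1A2 and COL3A1 were at 0 reads in every library. The T-lineage sum was lower in every JQ1 library than in any DMSO library. Mean levels of LCK were 314 and 86.5 CPM in DMSO and JQ1, and the other 5 genes besides TLX1 were lower in JQ1 as well. TLX1, the gene rearranged in this line, alone was higher in JQ1, at 182 CPM in DMSO and 249 CPM in JQ1. The part of the marker differences in the results below was not tested. CPM are counts per 1 M counts of the library total over the genes tested, after that total was multiplied by the library's TMM factor. Levels are mean ± SD over n = 3 libraries unless given by library, and changes are given as log2(JQ1/DMSO) with their standard error (SE).

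Under JQ1, members of both subunits fell and few rose. Of 49 large-subunit members 24 fell and 0 rose, and of 29 small-subunit members 16 fell and 2 rose (edgeR quasi-likelihood test, Benjamini-Hochberg adjusted p under 0.05 over 13975 genes). Over all genes tested, 20.6% were called lower and 15.9% higher, against 49% of the large-subunit and 55.2% of the small-subunit members lower. The falls were modest in size. The median log2 change was -0.30 for the large subunit and -0.34 for the small subunit, where it was 0.0036 over all genes tested. Called falls of more than 2-fold were seen for 4 of 78 members and for 1063 of 13975 genes tested. Most members lay below 0, namely 44 of 49 and 22 of 29. By DESeq2, 0 large-subunit members rose as well, and at an unadjusted p under 0.05 edgeR found 0 higher.

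**Figure D1:**
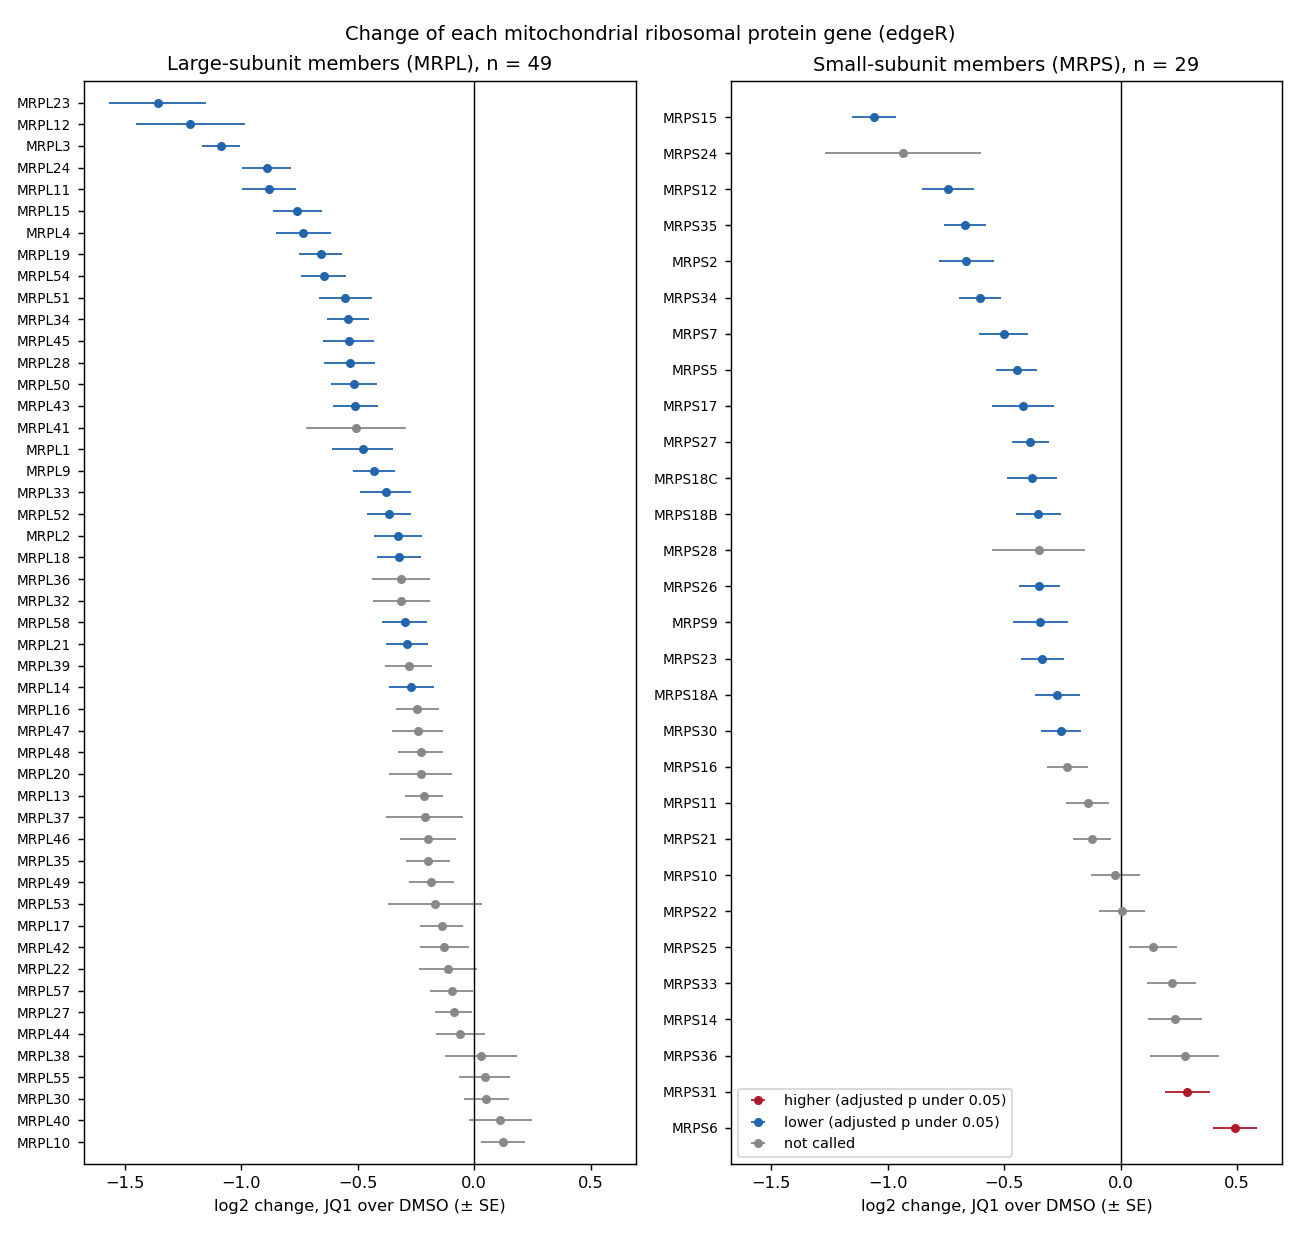
Log2 change (JQ1 over DMSO, horizontal axis) of each member, with bars for ± SE, for the large subunit on the left and the small subunit on the right. Blue points were called lower, red points higher (edgeR adjusted p under 0.05) and grey points were not called. Large-subunit points run from -1.36 (MRPL23) to 0.12 (MRPL10), and small-subunit points from -1.06 (MRPS15) to 0.49 (MRPS6).

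Libraries with the same replicate number varied together, and a fit that took this number as block called more members: 36 of 49 large-subunit members lower and 0 higher, and 19 of 29 small-subunit members lower and 5 higher. In that fit 29.6% of all genes were lower and 27.3% higher. No member called without the block lost or turned its call with it. Without JQ1 replicate 2 the number of small-subunit members called lower was 10 and the number called higher was 1, where 18.3% of all genes were lower.

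Summed over its 49 genes, the large subunit had 2279, 2102 and 2212 CPM in DMSO replicates 1, 2 and 3 and 1777, 1627 and 1752 CPM in JQ1. For the small subunit the sums were 1520, 1415 and 1470 CPM in DMSO and 1264, 1189 and 1238 CPM in JQ1. In both subunits every JQ1 library lay below every DMSO library. Replicate 2 was the lowest of its group in each of these 4 sets. Within replicate numbers 1, 2 and 3 the ratio of JQ1 to DMSO was 0.780, 0.774 and 0.792 for the large subunit and 0.831, 0.840 and 0.842 for the small subunit. Whether the subunits differ in their response was not tested. In such bulk samples fewer cells of a kind and less RNA per cell cannot be told apart.

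**Figure D2:**
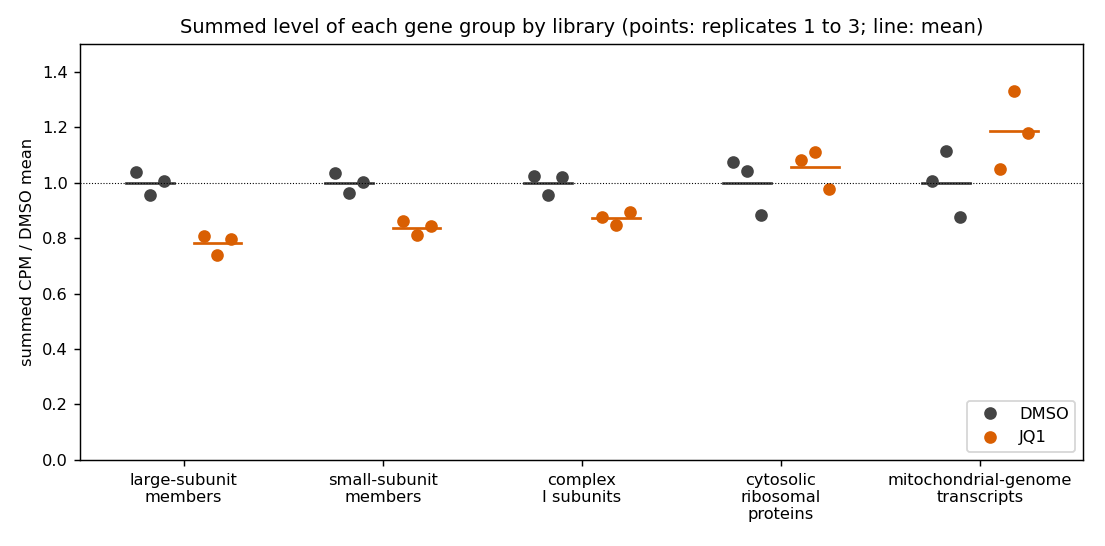
Summed CPM of each gene group in each library, divided by the mean of the DMSO libraries (vertical axis, starting at 0). Points are replicates 1 to 3 from left to right and lines are means. The mean of JQ1 is 0.782 for the large subunit, 0.838 for the small subunit and 0.872 for complex I subunits, and it is 1.06 for cytosolic ribosomal proteins and 1.19 for transcripts of the mitochondrial genome.

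Among large-subunit proteins with a bacterial counterpart, MRPL3, which lies near the peptidyl transferase centre, combined a large fall with a high level. MRPL3 (ENSG00000114686.8, chromosome 3, 131462212 to 131502983, GRCh38) had 133, 125 and 130 CPM in DMSO replicates 1, 2 and 3 and 63.3, 58 and 61.9 CPM in JQ1. The JQ1 libraries were all at less than the lowest DMSO library, and the spread within each group was small. The log2 change was -1.09 ± 0.08 (edgeR adjusted p = 1.5e-05), a 2.12-fold fall. MRPL23, a protein at the exit of the peptide tunnel (ENSG00000214026.10, chromosome 11, 1947278 to 1984522), had 7.68, 5.62 and 8.52 CPM in DMSO replicates 1, 2 and 3 and 3.03, 2.96 and 2.45 CPM in JQ1. Its groups did not overlap, and the change was -1.36 ± 0.21 (edgeR adjusted p = 0.00071), the largest of any member, on a low level. MRPL24, another tunnel-exit protein, fell by 0.89 ± 0.10, from 36 ± 2.26 to 19.4 ± 1.42 CPM, and MRPL15, a protein within the large subunit, fell by 0.76 ± 0.10.

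The stalk of the large subunit, which recruits translation factors, had members that fell and 1 that was not called. MRPL12 is the stalk protein that is also reported to bind the mitochondrial RNA polymerase, and MRPL11 and MRPL10 form the stalk base. MRPL12 (ENSG00000262814.7, chromosome 17, 81703357 to 81707526) had 8.32, 7.27 and 12.3 CPM in DMSO replicates 1, 2 and 3 and 4.2, 3.14 and 4.71 CPM in JQ1. DMSO replicate 3 was well above the other DMSO libraries, yet all JQ1 libraries were lower than all DMSO libraries. MRPL12 changed by -1.22 ± 0.23 (edgeR adjusted p = 0.0026), and 68.2% of its annotated exon length is shared with another gene on the same strand, so its level is uncertain. MRPL11 had 71.5, 62.5 and 80.1 CPM in DMSO replicates 1, 2 and 3 and 41.3, 34.2 and 40.9 CPM in JQ1, and fell by 0.88 ± 0.12 (edgeR adjusted p = 0.0003). MRPL10 had 26.6, 25 and 25.4 CPM in DMSO replicates 1, 2 and 3 and 27, 28.4 and 28.6 CPM in JQ1. The JQ1 libraries of MRPL10 were slightly above those of DMSO, with a change of 0.12 ± 0.09 that did not pass the test (edgeR adjusted p = 0.33, and 0.19 with the block). The difference between MRPL10 and the other stalk genes was not itself tested.

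The 3 most abundant large-subunit members per kilobase of exon were MRPL18, MRPL14 and MRPL15, with 67.8, 62.3 and 62.1 CPM per kilobase in DMSO, where the subunit's range was 2.01 to 67.8 and its median 15.3. Exon lengths are those of all annotated isoforms joined, so this scale understates genes with long minor isoforms. MRPL18, a protein of the central protuberance, had 103, 85.5 and 91 CPM in DMSO replicates 1, 2 and 3 and 77.9, 70.3 and 75.2 CPM in JQ1, with a change of -0.32 ± 0.09 (edgeR adjusted p = 0.022). This call was lost when JQ1 replicates 2 or 3 or DMSO replicate 1 were left out. MRPL14 had 65, 56.1 and 58.2 CPM in DMSO replicates 1, 2 and 3 and 51.8, 45.1 and 51.8 CPM in JQ1, and its change of -0.27 ± 0.10 lay at the threshold (edgeR adjusted p = 0.0498). The MRPL14 call was lost in 9 of 13 alternatives, with adjusted p up to 0.16, and without each library in turn. MRPL23 was the lowest large-subunit gene per kilobase over all libraries, at 1.7, next to MRPL41, a protein of mitochondria outside the bacterial set, at 1.88. MRPL41 had 2.66, 3.14 and 2.58 CPM in DMSO replicates 1, 2 and 3 and 1.86, 2.16 and 1.87 CPM in JQ1, and its change of -0.51 ± 0.21 was not called (edgeR adjusted p = 0.087, and 0.037 with the block).

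Beyond the 6 largest falls, 18 more large-subunit members were called lower, with log2 changes from -0.73 (MRPL4, a protein of the peptide tunnel wall) to -0.27. MRPL58, a peptidyl-tRNA hydrolase that frees stalled ribosomes and is also built into the large subunit, had 37.1, 35 and 39.3 CPM in DMSO replicates 1, 2 and 3 and 32, 28.2 and 30.4 CPM in JQ1. It changed by -0.30 ± 0.10 (edgeR adjusted p = 0.034), and the call was lost with DESeq2 and in 4 of the 6 fits that left out 1 library (JQ1 replicates 2 and 3, DMSO replicates 1 and 3). MRPL45, which ties the ribosome to the inner membrane, fell by 0.54 ± 0.11. Of 25 large-subunit members that were not called, 20 had log2 changes below 0 and 5 above 0, between -0.51 and 0.12. MRPL38 (0.03 ± 0.16) and MRPL55 (0.04 ± 0.11) were the members nearest to 0. MRPL38 had 8.13, 7.34 and 6.67 CPM in DMSO replicates 1, 2 and 3 and 8.32, 6.85 and 7.35 CPM in JQ1, so its groups overlapped, and 37.5% of its annotated exon length is shared with another gene on the same strand. MRPL37 shows how the replicate numbers went together, with 87.7, 64.5 and 96 CPM in DMSO replicates 1, 2 and 3 and 76.5, 57.5 and 80.5 CPM in JQ1: replicate 2 was low in both groups, and the change of -0.21 ± 0.17 was not called (edgeR adjusted p = 0.35) but passed with the block (edgeR adjusted p = 0.005).

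In the small subunit, MRPS15, a ribosomal RNA-binding protein with a bacterial counterpart, fell the most. MRPS15 (ENSG00000116898.11, chromosome 1, 36455718 to 36464437) had 55.5, 54.4 and 61.3 CPM in DMSO replicates 1, 2 and 3 and 27.8, 25.6 and 28.8 CPM in JQ1. Each JQ1 library was at about the same level, far below the lowest DMSO library. The change was -1.06 ± 0.09 (edgeR adjusted p = 3.7e-05), a 2.08-fold fall. MRPS12, a protein of the decoding centre (ENSG00000128626.11, chromosome 19, 38930548 to 38933162), had 33, 28.8 and 35.7 CPM in DMSO replicates 1, 2 and 3 and 19.3, 20.3 and 18.6 CPM in JQ1, with a change of -0.74 ± 0.11 (edgeR adjusted p = 0.00062). MRPS35 and MRPS34, proteins of mitochondria alone, fell by 0.67 ± 0.09 and 0.60 ± 0.09, and MRPS2 and MRPS7, with bacterial counterparts, fell by 0.66 ± 0.12 and 0.50 ± 0.11. A further 10 small-subunit members were called lower, between -0.45 and -0.26.

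**Figure D3:**
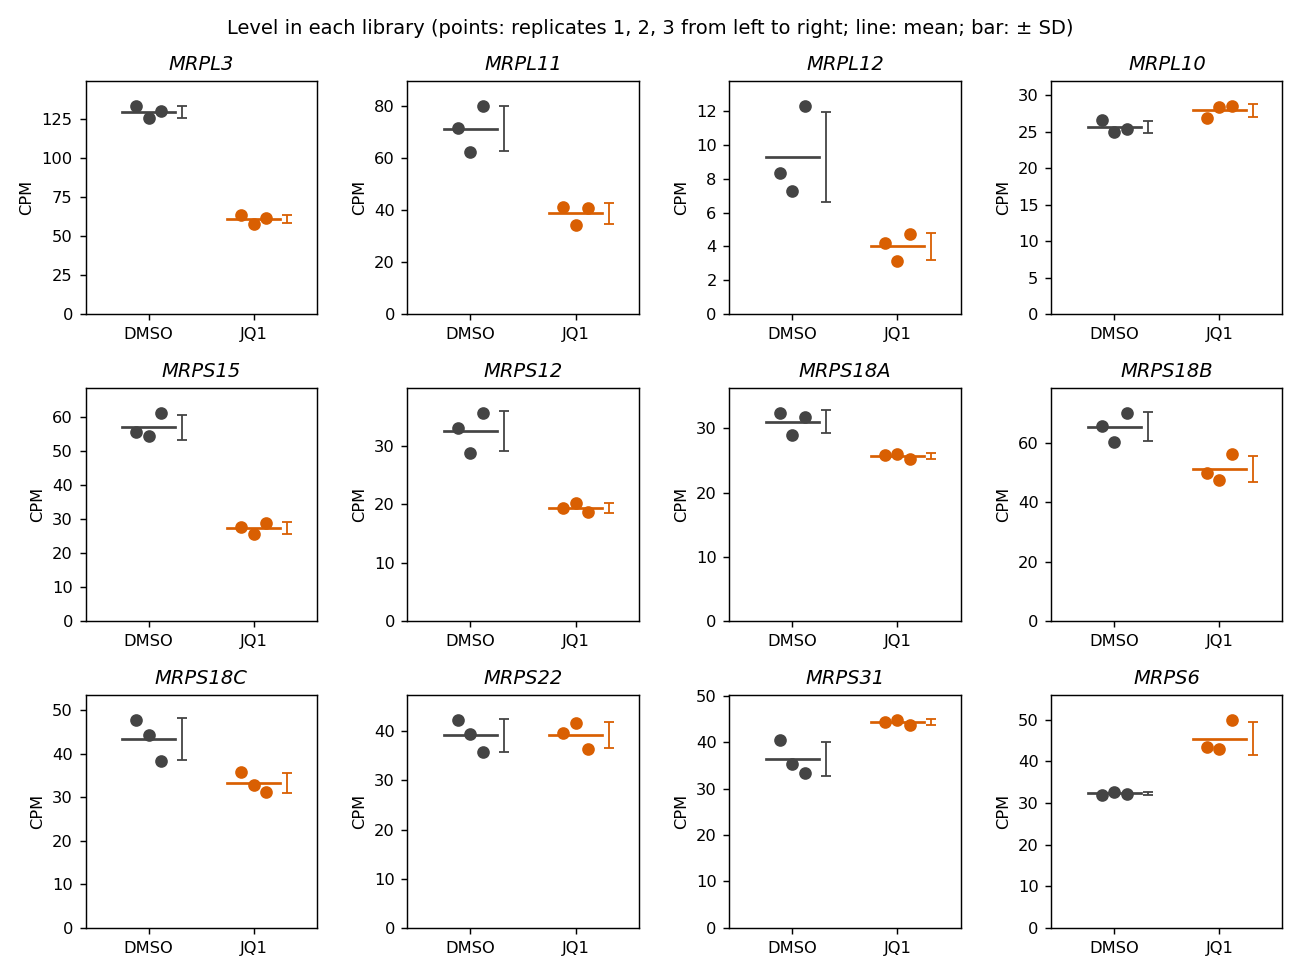
CPM of 12 members in each library (vertical axes start at 0 and differ between panels). Points are replicates 1 to 3, horizontal lines are means and bars are ± SD. MRPL3 and MRPS15 show groups far apart, the groups of MRPS22 overlap, and MRPS31 and MRPS6 are higher in all JQ1 libraries.

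Per kilobase of exon the most abundant small-subunit members were MRPS34, MRPS26 and MRPS16, with 69.9, 48.3 and 47.6 CPM per kilobase in DMSO, in a range of 0.425 to 69.9 with a median of 13.2. MRPS34 had 80.9, 72.3 and 76.8 CPM in DMSO replicates 1, 2 and 3 and 54.6, 47.7 and 48.9 CPM in JQ1, without overlap. MRPS26 fell by 0.35 ± 0.09 (edgeR adjusted p = 0.01). MRPS16, whose bacterial counterpart binds early in small-subunit assembly, had 139, 126 and 134 CPM in DMSO replicates 1, 2 and 3 and 119, 104 and 117 CPM in JQ1 and a change of -0.23 ± 0.09 that did not pass the test (edgeR adjusted p = 0.066, and 0.0014 with the block). MRPS24 was the lowest, with 0.936, 1.41 and 0.985 CPM in DMSO replicates 1, 2 and 3 and 0.727, 0.422 and 0.58 CPM in JQ1. Its change of -0.94 ± 0.34 was not called (edgeR adjusted p = 0.051, and 0.021 with the block). The readthrough gene URGCP-MRPS24 covers 23.2% of the annotated exon length of MRPS24, and reads in 2 genes are left out of such counts, so this level is uncertain.

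The genes MRPS18A, MRPS18B and MRPS18C encode 3 relatives of 1 bacterial protein that sit at different places: structures of the human mitoribosome put MRPS18A in the large subunit and MRPS18B and MRPS18C in the small subunit. MRPS18A had 32.4, 28.9 and 31.8 CPM in DMSO replicates 1, 2 and 3 and 25.9, 26 and 25.2 CPM in JQ1. For MRPS18B the levels were 65.6, 60.3 and 70.02 CPM in DMSO replicates 1, 2 and 3 and 49.9, 47.5 and 56 CPM in JQ1, and for MRPS18C they were 47.9, 44.3 and 38.3 CPM in DMSO replicates 1, 2 and 3 and 35.8, 32.8 and 31.3 CPM in JQ1. In each of the 3 genes every JQ1 library was below every DMSO library. Their changes were -0.27 ± 0.10, -0.35 ± 0.10 and -0.38 ± 0.11 (edgeR adjusted p = 0.046, 0.016 and 0.018). The calls of MRPS18A and MRPS18C were lost when both strands were counted together (-0.19 and -0.25, edgeR adjusted p = 0.3 and 0.25), and that of MRPS18A was lost in 10 of 13 alternatives, also with DESeq2, with relative log expression factors, without the low-count filter and without each library in turn. Without JQ1 replicate 1, JQ1 replicate 2 or DMSO replicate 3 MRPS18B was not called, and the same held for MRPS18C without JQ1 replicate 3, DMSO replicate 1 or DMSO replicate 2. MRPS30, which also belongs to the large subunit by structure, had 69.3, 77.3 and 71.7 CPM in DMSO replicates 1, 2 and 3 and 61.2, 63.5 and 58.1 CPM in JQ1 and a change of -0.26 ± 0.08 (edgeR adjusted p = 0.037), which was lost with DESeq2 and without any library other than DMSO replicate 1. With MRPS18A and MRPS30 counted by structure, 26 of 51 large-subunit and 14 of 27 small-subunit members fell.

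Against the others, 2 small-subunit members rose. MRPS6, the counterpart of bacterial S6 (ENSG00000243927.5, chromosome 21, 34073224 to 34143034), had 32, 32.7 and 32.2 CPM in DMSO replicates 1, 2 and 3 and 43.5, 42.9 and 50.02 CPM in JQ1. DMSO libraries were nearly equal and every JQ1 library was higher, with JQ1 replicate 3 the highest. The change was 0.49 ± 0.09 (edgeR adjusted p = 0.0025), a call kept in all 13 alternatives. Exons of MRPS6 share 9.61% of their annotated length with other genes on the same strand, among them SLC5A3. MRPS31, a protein of mitochondria alone, had 40.5, 35.2 and 33.4 CPM in DMSO replicates 1, 2 and 3 and 44.3, 44.8 and 43.6 CPM in JQ1 and rose by 0.29 ± 0.10 (edgeR adjusted p = 0.042). The MRPS31 call was lost in 9 of 13 alternatives, among them DESeq2 and the fits without any 1 library other than DMSO replicate 1, and GENCODE lists 4 pseudogenes named after it, to which its reads could also map. MRPS22 (0.00 ± 0.10) and MRPS10 (-0.02 ± 0.10) were the uncalled members nearest to 0, and MRPS22 had 42.4, 39.5 and 35.7 CPM in DMSO replicates 1, 2 and 3 and 39.7, 41.6 and 36.4 CPM in JQ1. MRPS36, which later work assigns to the oxoglutarate dehydrogenase complex and not to the ribosome, had 13.2, 12.9 and 10.9 CPM in DMSO replicates 1, 2 and 3 and 15.5, 16.8 and 12.3 CPM in JQ1. Its change of 0.27 ± 0.15 was not called (edgeR adjusted p = 0.17, and 0.028 with the block).

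Sorted by kind of protein, a grouping made after the values had been seen, members with a bacterial counterpart were lower in 25 of 45 cases and higher in 1, with a median log2 change of -0.34. Members counted as known from mitochondria alone were lower in 15 of 32 cases and higher in 1, with a median of -0.26. That kind included MRPS18A and MRPS18B, although they are relatives of a bacterial protein. Both were called lower, so the counts of the kinds depend on where they are placed. For comparison, 20.6% of all genes tested were lower and 15.9% higher. In the large subunit these counts were 17 of 29 and 7 of 20, and in the small subunit 8 of 16 and 8 of 12. With the block, 24 of 29 and 12 of 20 large-subunit members were lower, and 11 of 16 and 8 of 12 small-subunit members, where 29.6% of all genes were lower. The difference between the kinds was not tested.

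The groups did not overlap for 32 of 49 large-subunit and 23 of 29 small-subunit members, where 48.9% of all genes tested had groups without overlap. All 40 members called lower were among them. Members lie on 21 chromosomes, with at most 8 on any of them.

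Their promoters were examined for letters that the choice of members had not used. RefSeq promoter windows (300 bases around the first listed start of each gene, GRCh38.p14) matched 69 members. MRPL2, MRPL10, MRPL13, MRPL15, MRPL21, MRPL23, MRPL35, MRPS28 and MRPS36 were not matched. CCGGAAG, a core of sites of ETS factors such as GABPA, was searched on both strands and found in 29 of 69 windows (42.0%), against 10.7% of all 27305 windows and 21.8% of 8555 windows of tested protein-coding genes. The longer word bound by YY1 was in 10 windows (14.5%), against 0.916% of all windows and 2.35% of those of tested protein-coding genes. The E-box CACGTG, which MYC and related factors can bind, was in 6 windows (8.70%), against 7.44% and 10.4%, and the palindromic word bound by NRF1 was in 1 (1.45%), against 1.36% and 2.58%. Members with CCGGAAG had 14 of 29 lower and a median log2 change of -0.24, and those without it 22 of 40 lower and -0.35. With the YY1 word 4 of 10 were lower (median -0.26), and without it 32 of 59 (median -0.34). Of the 6 members with CACGTG 2 were lower (median -0.26), and of 63 without it 34 (median -0.32). Among all tested protein-coding genes with a window, those with CACGTG were instead lower more often. Their share was 29.4% of 889 (median -0.090), against 23.7% without it (median -0.024). The shares lower with and without the word were 22.0% and 24.9% for CCGGAAG, and 25.4% and 24.2% for the YY1 word. With a match counted at any listed start of a gene, CACGTG was found for 9 members (13.0%), against 8.78% of all genes with a window, and CCGGAAG for 30 (43.5%), against 12.2%. The any-start count was not made for tested protein-coding genes alone, of which 10.4% had CACGTG at the first listed start. These are matches of letters and not shown sites, and no difference between them was tested.

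The windows of members with large falls (MRPL3, MRPS15 and MRPS34), of MRPS18A with both frequent words, and of the 2 members that rose (MRPS31 and MRPS6) are given 5′ to 3′ on the strand of the gene, so that windows with and without a match can be compared. Capitals mark matches to the 4 words on either strand. The word CCGGAAG is seen once in MRPL3, which fell, and once in MRPS31, which rose. MRPS34 holds it 3 times as its reverse complement CTTCCGG. MRPS15 and MRPS6 hold none of the 4 words.
MRPL3 (chr3:131502922-131503221, minus strand): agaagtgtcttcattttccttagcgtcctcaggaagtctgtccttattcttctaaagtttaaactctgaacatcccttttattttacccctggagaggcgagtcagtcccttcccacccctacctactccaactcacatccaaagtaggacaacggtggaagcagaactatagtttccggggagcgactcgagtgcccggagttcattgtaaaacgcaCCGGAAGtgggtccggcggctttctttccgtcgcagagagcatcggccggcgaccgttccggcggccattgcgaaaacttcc
MRPS15 (chr1:36464335-36464634, minus strand): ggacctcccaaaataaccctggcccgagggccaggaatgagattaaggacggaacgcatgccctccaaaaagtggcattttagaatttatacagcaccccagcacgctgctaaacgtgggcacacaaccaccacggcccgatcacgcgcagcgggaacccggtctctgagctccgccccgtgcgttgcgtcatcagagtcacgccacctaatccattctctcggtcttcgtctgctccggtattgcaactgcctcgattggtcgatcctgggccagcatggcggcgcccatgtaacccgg
MRPS34 (chr16:1773085-1773384, minus strand): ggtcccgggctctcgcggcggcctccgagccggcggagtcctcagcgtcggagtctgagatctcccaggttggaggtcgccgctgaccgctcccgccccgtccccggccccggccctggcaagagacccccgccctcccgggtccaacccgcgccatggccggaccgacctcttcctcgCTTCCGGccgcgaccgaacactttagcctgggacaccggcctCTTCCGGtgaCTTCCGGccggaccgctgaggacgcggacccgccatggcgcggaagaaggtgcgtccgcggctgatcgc
MRPS18A (chr6:43687742-43688041, minus strand): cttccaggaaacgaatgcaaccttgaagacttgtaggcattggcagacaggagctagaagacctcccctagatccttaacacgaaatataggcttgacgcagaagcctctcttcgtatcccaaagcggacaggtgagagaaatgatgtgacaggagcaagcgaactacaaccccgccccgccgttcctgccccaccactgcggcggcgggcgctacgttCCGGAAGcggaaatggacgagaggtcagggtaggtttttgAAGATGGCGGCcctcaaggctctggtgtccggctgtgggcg
MRPS31 (chr13:40771141-40771440, minus strand): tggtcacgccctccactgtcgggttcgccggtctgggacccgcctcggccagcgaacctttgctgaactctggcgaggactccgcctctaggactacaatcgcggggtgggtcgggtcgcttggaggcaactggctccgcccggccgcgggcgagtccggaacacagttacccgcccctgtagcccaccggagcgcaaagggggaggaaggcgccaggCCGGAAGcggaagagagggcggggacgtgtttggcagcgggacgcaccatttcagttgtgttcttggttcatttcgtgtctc
MRPS6 (chr21:34073328-34073627, plus strand): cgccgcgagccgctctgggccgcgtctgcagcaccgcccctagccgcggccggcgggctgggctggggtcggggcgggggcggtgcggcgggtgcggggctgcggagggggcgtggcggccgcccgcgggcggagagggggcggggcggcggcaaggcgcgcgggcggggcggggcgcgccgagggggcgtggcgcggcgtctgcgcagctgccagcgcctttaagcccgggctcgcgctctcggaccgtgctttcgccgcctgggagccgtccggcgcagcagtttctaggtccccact

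A part of the members start beside another gene that runs the opposite way. For 17 members GENCODE lists a protein-coding gene on the other strand, running away from a start at most 1000 bases off, and MRPL46 and MRPS11 are such a pair of members, 34 bases apart. MRPL46 had 17, 16.5 and 15.1 CPM in DMSO replicates 1, 2 and 3 and 14, 15.3 and 12.9 CPM in JQ1, and MRPS11 had 46.9, 41.7 and 42 CPM in DMSO replicates 1, 2 and 3 and 40.4, 40.5 and 37.3 CPM in JQ1. Neither was called, at -0.20 ± 0.12 and -0.14 ± 0.09 (edgeR adjusted p = 0.23 and 0.25). Beside 12 members lay a tested neighbour that is no member: 6 of these members were lower, while of the neighbours 2 were lower and 2 higher. The median log2 change was -0.32 for the members and 0.014 for their neighbours, and 10 of 12 members had the lower value of the pair. All genes tested had 20.6% lower, 15.9% higher and a median of 0.0036, so the neighbours lay near the average gene. MRPS18C fell by 0.38 ± 0.11, whereas HELQ, a DNA helicase gene 76 bases away, rose by 0.54 ± 0.10 (edgeR adjusted p = 0.002). EME1, the neighbour of MRPL27 at 6 bases and a gene of DNA repair, rose by 0.71 ± 0.13, with MRPL27 itself at -0.09 ± 0.08 and not called. MRPL36 and the complex I gene NDUFS6, 34 bases apart, lay closer together, at -0.31 ± 0.12 (edgeR adjusted p = 0.069, and 0.0052 with the block) and -0.41 ± 0.09 (edgeR adjusted p = 0.0054). The difference within pairs was not tested.

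**Figure D4:**
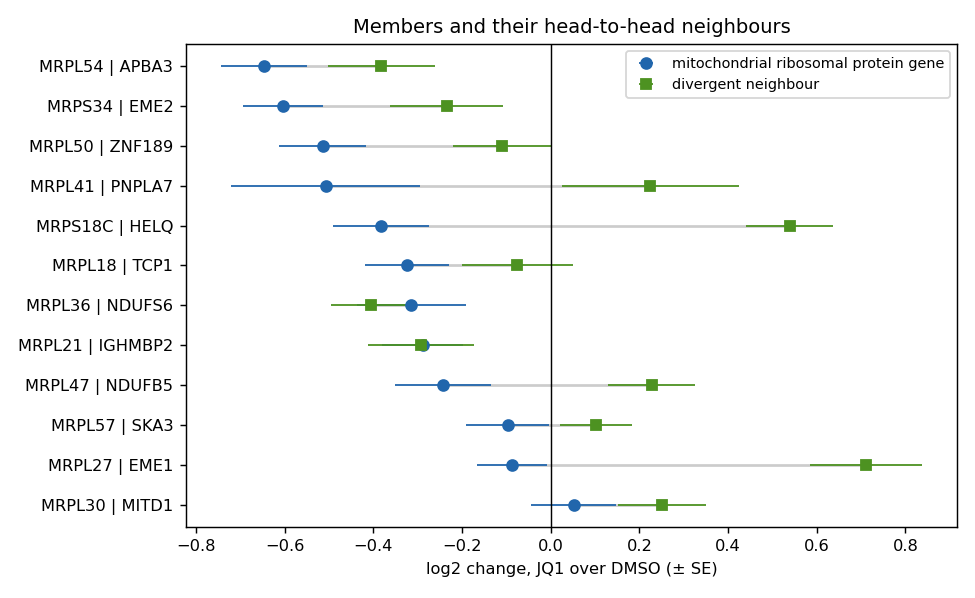
Log2 change (JQ1 over DMSO, horizontal axis, bars ± SE) of 12 members (circles) and of the protein-coding gene that starts beside each on the other strand (squares). The member lies to the left of its neighbour in 10 of 12 pairs, with the widest gaps for MRPS18C with HELQ and MRPL27 with EME1.

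Other genes of the same machinery also fell in part. Of 5 mitoribosomal proteins with other symbols 2 fell and 0 rose by edgeR and by DESeq2, with 0 higher at an unadjusted p under 0.05. GADD45GIP1, a large-subunit protein, had 55, 46.5 and 64.5 CPM in DMSO replicates 1, 2 and 3 and 32, 24.5 and 35 CPM in JQ1, and fell by 0.86 ± 0.15 (edgeR adjusted p = 0.0019), and AURKAIP1 of the small subunit fell by 0.61 ± 0.11. DAP3, the GTP-binding small-subunit protein, was at 0.08 ± 0.08 and not called. Of 27 genes of mitoribosome assembly 9 fell (33.3%) and 1 rose. Over all genes tested, 20.6% were called lower and 15.9% higher. RCC1L, a factor of ribosome assembly, went from 48.2 ± 4.63 to 25.6 ± 1.27 CPM (-0.91 ± 0.10, edgeR adjusted p = 0.00013), and MRM1, which methylates the large ribosomal RNA, from 12.6 ± 4.16 to 6.82 ± 2.18 CPM. The MRM1 call was lost without JQ1 replicate 1, JQ1 replicate 2 or DMSO replicate 3. MTERF3, which acts in assembly of the large subunit, rose by 0.39 ± 0.09.

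Of 16 genes of mitochondrial translation 7 fell (43.75%) and 1 rose, where 20.6% of all genes tested were lower. TACO1, an activator of COX1 translation, fell from 24.5 ± 0.644 to 14.5 ± 0.239 CPM, and the initiation factor gene MTIF2 from 58.7 ± 1.01 to 39.6 ± 1.78 CPM. MTFMT, which formylates the initiator methionyl-tRNA, rose from 17.4 ± 1.46 to 27.3 ± 1.15 CPM (0.65 ± 0.11, edgeR adjusted p = 0.0012). In the list of mitochondrial transcription and RNA processing 7 of 12 fell (58.3%) and 1 rose. TFB2M, which opens mitochondrial promoters, had 19.4, 15.7 and 16.8 CPM in DMSO replicates 1, 2 and 3 and 8.49, 9.15 and 8.25 CPM in JQ1 and fell by 1.00 ± 0.13, and PRORP, the nuclease of mitochondrial RNase P, fell by 0.82 ± 0.13. MTERF2 rose from 1.51 ± 0.0942 to 2.38 ± 0.13 CPM, a call lost in 9 of 13 alternatives, among them DESeq2 and the fits without each library in turn. The medians of these 4 lists were -0.23, -0.13, -0.24 and -0.28. With the block the numbers lower and higher were 4 and 0, 11 and 5, 10 and 1, and 8 and 1. That fit called 29.6% of all genes lower and 27.3% higher.

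Cytosolic ribosomal proteins, the counterpart outside mitochondria, were for the most part not called: of 77 genes 1 fell and 4 rose, with a median log2 change of 0.029 (5 lower and 19 higher with the block). Shares over all genes tested were 20.6% lower and 15.9% higher, and with the block 29.6% and 27.3%. RPL12, a stalk-base protein like MRPL11, rose from 432 ± 35.5 to 649 ± 33.2 CPM (0.59 ± 0.11, edgeR adjusted p = 0.0019), RPL28 rose by 0.49 ± 0.09, and RPL22 fell by 0.33 ± 0.11 (edgeR adjusted p = 0.036, lost when JQ1 replicates 2 or 3 or DMSO replicates 1 or 2 were left out). Their summed level was 42961, 41552 and 35272 CPM in DMSO and 43133, 44335 and 39076 CPM in JQ1, with overlap. Nuclear genes of complex I, the entry point of the respiratory chain, had 14 of 37 lower (37.8%) and 1 higher. Their median was -0.20 (18 lower and 3 higher with the block), and 20.6% of all genes tested were lower. NDUFB7 and NDUFB10, membrane-arm subunits, fell by 0.75 ± 0.10 and 0.75 ± 0.08, and NDUFV3 rose by 0.40 ± 0.09. No test compared these lists with the members.

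The RNAs of the mitochondrial ribosome itself were not called lower. MT-RNR1, the small-subunit RNA, had 16560, 23190 and 15559 CPM in DMSO replicates 1, 2 and 3 and 18186, 26280 and 20420 CPM in JQ1, and MT-RNR2, the large-subunit RNA, had 128011, 137776 and 110139 CPM in DMSO replicates 1, 2 and 3 and 132638, 165804 and 148944 CPM in JQ1. For both, DMSO replicate 2 lay above JQ1 replicate 1, so the groups overlapped. Their changes of 0.23 ± 0.21 and 0.25 ± 0.19 were not called (edgeR adjusted p = 0.42 and 0.34) and were called higher with the block (edgeR adjusted p = 0.023 and 0.038). Of 23 tested transcripts of the mitochondrial genome edgeR called 0 in either direction, and 0 passed at an unadjusted p under 0.05. DESeq2 called 0 of 32 after adjustment and 4 higher at an unadjusted p under 0.05, and the fit with the block called 0 lower and 6 higher. Whether ribosomal RNA was removed before sequencing is not given in the sources used here.

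**Figure D5:**
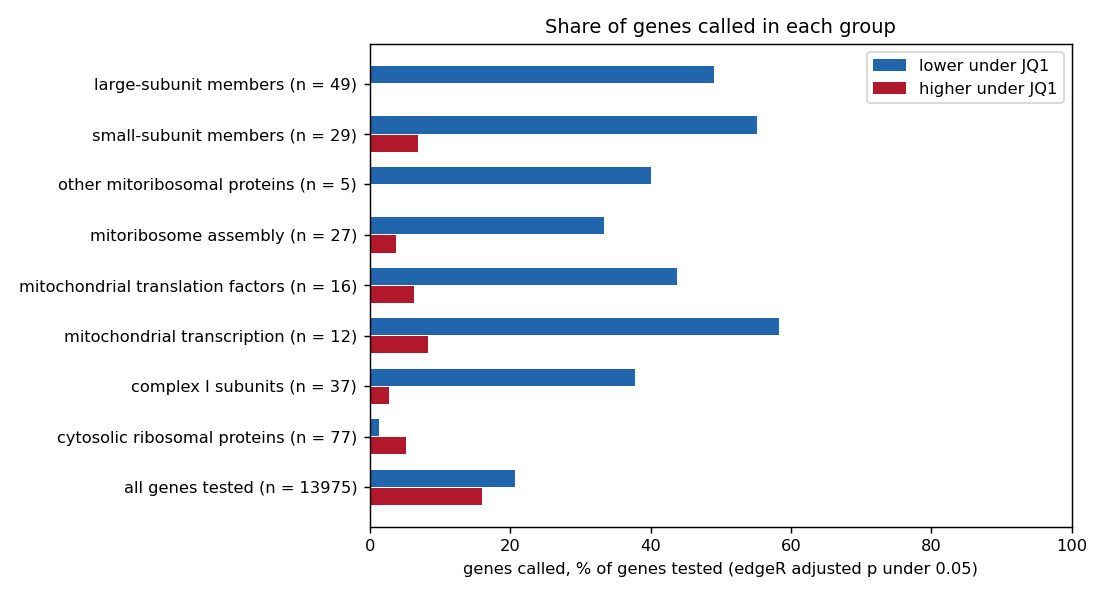
Share of tested genes called lower (blue) and higher (red) under JQ1 in each group, in percent (edgeR adjusted p under 0.05), with the number of genes tested in brackets. The large and small subunits reach 49% and 55.2% lower, where all genes tested give 20.6%, and cytosolic ribosomal proteins give 1.30%. Protein-coding genes tested, not drawn, give 24.3%.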

How the data were processed

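Total RNA of 6 libraries (JQ1 and DMSO, replicates 1 to 3) was measured with a stranded total RNA kit, per the labels' protocols. The authors deposited raw counts of reads per gene. Per the submitters' processing notes, reads were placed on GRCh38. Aligner and annotation release: not given in the sources used here. The layout is that of STAR gene counts, where a read in more than 1 place or gene is not counted; 34 members have pseudogenes named after them in GENCODE (75 in all), and 16 share exon length with another gene on the same strand, so such levels are uncertain. The reverse-strand column was used, which held 20.9 to 22.6 times the counts of the other. The 4 leading lines of read classes stayed out: 18.8% to 26.1% of reads lay in no gene, 14.2% to 15.7% mapped to several places, 3.38% to 3.88% were ambiguous and 1.48% to 1.99% unmapped. Of 58096 gene identifiers, 57492 matched GENCODE release 29 without their version; 77 of 78 members matched with it.

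Genes were kept with edgeR 4.0.16 filterByExpr (minimum count 10, minimum total 15), which left 13975, scaled by TMM (0.965 to 1.06) and tested by its quasi-likelihood functions (R 4.3.3; robust glmQLFit, then glmQLFTest) on group alone, at a Benjamini-Hochberg adjusted p under 0.05. The SE was derived from the F statistic. Deviations from group means correlated 0.326, 0.433 and 0.372 between libraries of the same number across genes, so numbers were taken as pairs in an alternative fit; what the number stands for is not labelled. Other alternatives were DESeq2 1.42.0, relative log expression factors, library size only, no filter, unstranded counts, mitochondrial-genome and small RNA genes left out, and each library left out. Replicates differed by more than sampling noise (chi-square per degree of freedom 15.5 to 32.8). Members and lists were chosen with earlier results of these data known.

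Members named in the text were, for each subunit, the 6 called falls and rises of largest size, the 3 highest levels per kilobase, the lowest level and the 2 uncalled nearest 0, with MRPS18A to MRPS18C, MRPS30, MRPS36, MRPL58 and MRPL12; other lists give the 2 largest calls per direction. MRPL10, MRPL37, MRPL41, MRPL42, MRPL45, MRPL4, MRPL46, MRPS11, MRPL27, MRPL36, DAP3, MT-RNR1 and MT-RNR2 were named after their values were seen.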

Additional observations from a re-analysis of the deposited data

Results flagged for a closer look

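Reads on the strand opposite to MRPL42 were higher under JQ1. They numbered 13, 20 and 12 in the DMSO libraries (replicates 1 to 3), against 45, 31 and 23 under JQ1, a log2 change of 1.28 ± 0.31 (edgeR adjusted p = 0.0055 over 7018 genes with enough opposite-strand reads, of which 529 were higher). It drew notice because the comparisons of the report do not use this column and the level in JQ1 exceeded that in the controls. MRPL42 was the only member called among 16 tested on that strand, and on its own strand its log2 change was -0.13 ± 0.10 (edgeR adjusted p = 0.37). The opposite-strand reads were 0.675% of the reads of the gene.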

How the results depend on the processing

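Across 13 alternatives, 26 of 40 members called lower kept the call in every one, and 14 lost it in at least 1. No member with a call changed sign. Without 1 library in turn, large-subunit members called lower numbered 18 to 23 and called higher 0, small-subunit members called lower 10 to 13 and called higher 1 to 2, and the medians ran from -0.34 to -0.24 and from -0.36 to -0.29. The 10 came without JQ1 replicate 2. In the fits without 1 library, 17.1% to 18.3% of all genes tested were called lower, against 20.6% with all libraries. In the other alternatives the large subunit had 21 to 36 members lower and the small subunit 13 to 19. The share of all genes called lower also moved, from 10.4% with DESeq2 (over 26447 genes) to 29.6% with the replicate block. The median of the large subunit was -0.36 with library size only, where the median of all genes was -0.059. Small-subunit members called higher numbered 1 with DESeq2, with library size only, without the low-count filter and with unstranded counts, and 5 with the replicate block. The cause was not tested. Cytosolic ribosomal proteins called higher numbered 7 with DESeq2, against 4. The replicate block lost no call and gained 15 lower and 3 higher. Leaving out members with over 10% of exon length shared with other genes, an alternative chosen after seeing the data, gave 22 lower in the large subunit and 15 in the small subunit. The lowest levels were those of MRPS24 and MRPL41, at 1.11 and 2.79 CPM in DMSO.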
